A study of Homo sapiens with 4 samples.

Results

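The aryl hydrocarbon receptor and 6 genes tied to it (TIPARP, CYP1A1, CYP1B1, AHR, AHRR, ARNT and ALDH3A1) were followed through every probe set annotated to exactly 1 of these symbols, which gave 20 of the 49293 gene probe sets on the array and 7 of 18132 named genes. A probe set is a group of short oligonucleotides that report 1 transcript or a group of transcripts. The RNA came from A549, an established line of human lung adenocarcinoma, on 4 arrays of 1 condition each. Cells received 25 μmol/L dihydroberberine, a reduced form of the alkaloid berberine, or 2 μmol/L sunitinib, an inhibitor of receptor tyrosine kinases, or both drugs at these doses, and were set against cells that received neither drug. All were collected after 48 h in the same serum-containing medium, and whether the untreated cells received the drugs' solvent is not stated in the labels. With 1 array per condition no difference between conditions has a replicate check, no test was made, and precision is limited by there being 4 arrays.

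The receptor encoded by AHR is a transcription factor of the bHLH-PAS family that waits in the cytosol, bound to the chaperone HSP90, until a small ligand such as a dioxin, a polycyclic hydrocarbon or a tryptophan metabolite binds it. It then enters the nucleus, pairs with ARNT and binds DNA at the xenobiotic response element, whose core reads GCGTG. In airway epithelium this pathway is known for inducing the cytochrome P450 enzymes CYP1A1 and CYP1B1, which oxidise the hydrocarbons of smoke, and for inducing its own brakes, AHRR and TIPARP.

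To see which members carry the response element core near their start, the 250 bases before the transcription start were read from RefSeq promoters of build GRCh38.p14. They were searched for GCGTG and its reverse complement CACGC, so that both strands were covered. Sequence further upstream was not searched, so elements that lie there are missed. TIPARP, CYP1A1, AHRR, AHR and ARNT were matched, with 8 annotated starts over 5 genes, and CYP1B1 and ALDH3A1 were not searched here. The core was present before 4 of the 8 starts, at 1 TIPARP start, the CYP1A1 start and both AHRR starts, of which the upstream one is shown. Of 35116 promoters of the same length 32.2% held it, so a match in a single promoter is common. The 3 promoters are shown because these genes gave unlike readouts below, with the core in capitals. They lie at chr3:156674340-156674589 on the plus strand for TIPARP, at chr15:74725529-74725778 on the minus strand for CYP1A1 and at chr5:321464-321713 on the plus strand for AHRR, each read 5′ to 3′ along its gene.
TIPARP: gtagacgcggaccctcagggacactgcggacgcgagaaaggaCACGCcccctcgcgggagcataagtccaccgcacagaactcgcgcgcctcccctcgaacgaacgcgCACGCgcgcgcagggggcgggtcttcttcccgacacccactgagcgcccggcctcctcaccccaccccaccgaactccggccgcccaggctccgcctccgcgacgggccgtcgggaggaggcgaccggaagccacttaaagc
CYP1A1: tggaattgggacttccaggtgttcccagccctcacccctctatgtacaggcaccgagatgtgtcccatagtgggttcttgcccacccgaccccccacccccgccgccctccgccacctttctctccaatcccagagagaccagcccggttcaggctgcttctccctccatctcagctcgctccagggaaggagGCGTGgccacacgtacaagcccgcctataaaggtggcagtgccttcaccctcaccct
AHRR: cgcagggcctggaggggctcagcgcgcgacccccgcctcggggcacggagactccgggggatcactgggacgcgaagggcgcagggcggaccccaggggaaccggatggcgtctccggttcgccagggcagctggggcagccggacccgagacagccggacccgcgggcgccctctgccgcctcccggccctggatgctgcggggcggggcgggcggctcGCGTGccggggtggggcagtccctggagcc
In TIPARP the core began 208 and 142 bases before the start, both times as CACGC, in CYP1A1 it began 57 bases before it and in AHRR 30 bases before it. The longer form TNGCGTG, or CACGCNA on the other strand, was present before 1 of the 8 starts, the AHRR start shown, and in 4.52% of all promoters. The 250 bases before the AHR and ARNT starts did not contain these letters.

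All values are log2 probe set signals as deposited, and a difference of 1 is 2-fold. Levels were read against a floor at the median of all gene probe sets, 6.75, which is not a limit of detection. The array medians lay between 6.73 and 6.76. The arrays differed in control signals: with dihydroberberine alone, against untreated cells, the Alu control was lower by a log2 difference of -0.41 and the 18S rRNA controls by -0.63, and 11 background probe sets rich in G and C differed by a median of 0.40 (0.21 to 0.53). Their median level was 7.15 with dihydroberberine, 6.99 with sunitinib and 6.95 with both, against 6.70 in untreated cells. In the combination against sunitinib these background probe sets differed by a median of -0.04, and the Alu and 18S controls by 0.00 and 0.02. Whether these controls bear on the differences of dim members was not tested. Of 6 epithelial markers, KRT7, KRT8, KRT18 and KRT19 were above the floor on all arrays, whereas EPCAM and CDH1 were under it on all 4. Of 10 markers of blood, endothelial, stromal and liver cells 8 were under the floor on all arrays. HBB lay between 8.09 and 8.27, and CD14 was at 6.75 with dihydroberberine, 6.27 with sunitinib and 5.76 with both, against 8.82 in untreated cells. The summed log2 level of the 10 markers was 57.7, 56.5 and 55.0 in these treated libraries and 59.2 in untreated cells, and its part in the results was not tested.

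Dihydroberberine could be read in 2 comparisons that use separate arrays: the single drug against untreated cells, and the combination against sunitinib. TIPARP was higher in both, CYP1B1 was higher in both but past 2-fold in the first of them, and the other 5 genes stayed under 2-fold in both. For each gene the probe set of highest mean signal stands for it in these counts. The members were chosen with earlier results of these data known, so their counts beside the shares of all genes are no test of the pathway. With dihydroberberine alone 2 of 7 measured members reached a 2-fold higher signal, as did 0.862% of 10791 genes, and 0 a 2-fold lower one, as did 3.13%. For the combination set against sunitinib the higher members numbered 1 of 7, beside 0.601% of 10644 genes, and the lower ones 0, beside 0.0846%. The median log2 difference of the members was 0.23 and 0.59 in these comparisons, beside -0.03 and 0.00 over all genes measured. These medians are the values of ALDH3A1 and of AHRR, whose other probe set gave 0.04 in the second comparison. CYP1A1, which reached the floor only on the arrays with dihydroberberine, enters them as deposited, with 0.84 and 0.63. They are therefore no evidence about the members as a set. Counted by probe set, 6 of the 19 that reached the floor were past 2-fold higher with dihydroberberine alone (0.97% of all probe sets) and 0 past 2-fold lower (2.7%). For the combination set against sunitinib 2 of 19 were higher (0.585%) and 0 lower (0.0982%). The second CYP1A1 probe set was under the floor on all arrays. CYP1B1 had 5 probe sets and TIPARP 2, which report the same gene on the same arrays and are not independent.

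**Figure D1:**
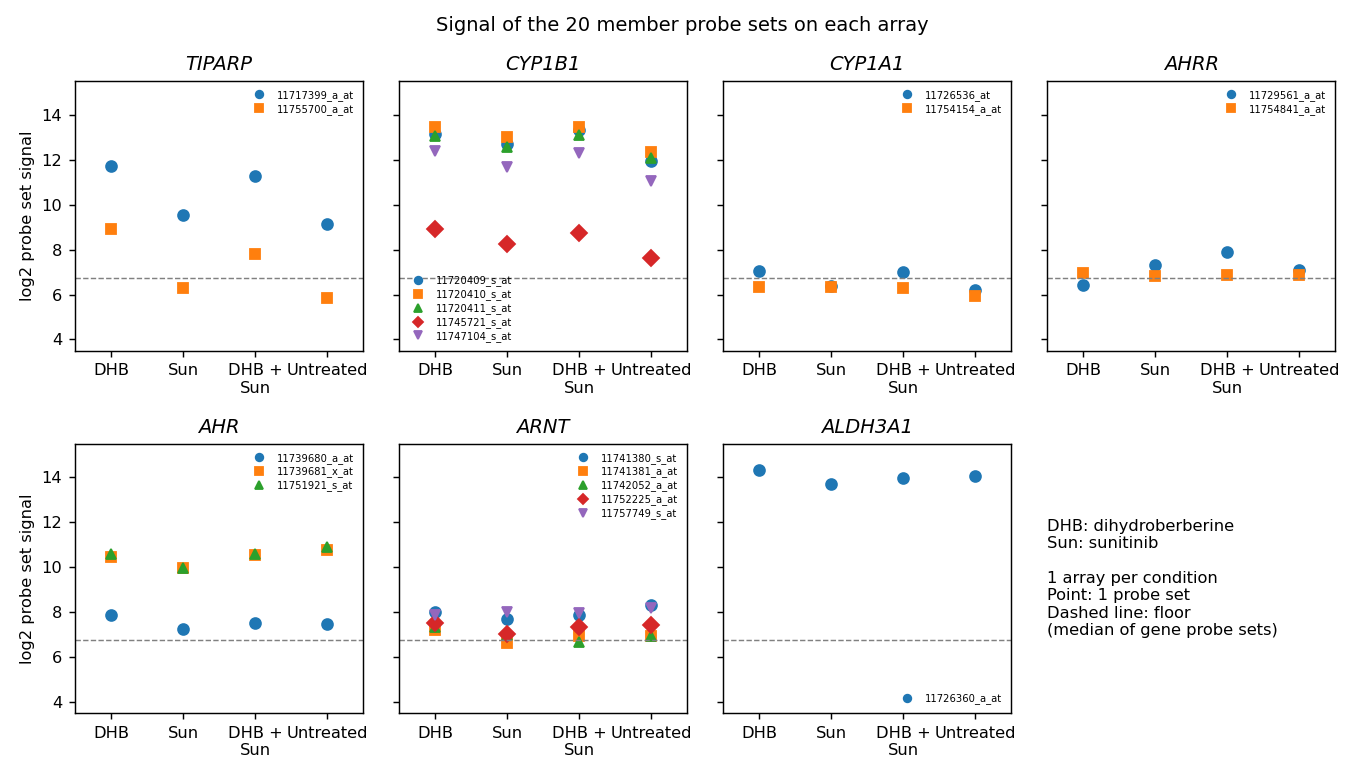
Log2 signal of each of the 20 probe sets (vertical axis) on the 4 arrays (horizontal axis: dihydroberberine, DHB; sunitinib, Sun; both; untreated), 1 panel per gene, 1 symbol per probe set, with the floor of 6.75 dashed. Both TIPARP probe sets are high on the arrays with dihydroberberine, the CYP1B1 probe sets are lowest in untreated cells, and CYP1A1 and AHRR lie close to the floor.

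TIPARP, an ADP-ribosyltransferase that the receptor induces and that in turn modifies the receptor and limits its activity, was the member of greatest difference. Its brighter probe set, 11717399_a_at, read 11.72 with dihydroberberine, 9.54 with sunitinib and 11.26 with both, against 9.13 in untreated cells. The second, 11755700_a_at, read 8.92, 6.30 and 7.79 in the same order, against 5.86 in untreated cells, where it was under the floor as it was with sunitinib. On both probe sets the 2 libraries with dihydroberberine were above the 2 without it, and the single drug was above the combination. The log2 difference with dihydroberberine was 2.59 (6.02-fold), rank 7 from the highest of the genes measured, and the second probe set, read against the floor, was at least 4.50-fold higher. With sunitinib present in both libraries it was 1.72 (3.29-fold), with rank 15 from the highest, and the second probe set was at least 2.05-fold higher.

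Sunitinib alone went with a TIPARP log2 difference of 0.41 (1.33-fold), while the second probe set was under the floor in both libraries. Added to dihydroberberine it went with differences of -0.46 and -1.14. The deviation from additivity, which is the combination minus each single drug plus untreated on the log2 scale, was -0.87 for TIPARP, number 70 from the lowest of 10958 genes. Over these genes it had a median of 0.06 and an SD of 0.43, with a 5th percentile of -0.53 and a 95th of 0.88. CYP1B1 deviated downwards too, by -0.69, number 204 from the lowest. AHRR and AHR deviated upwards, AHRR by 1.29, number 159 from the highest, and AHR by 0.95, number 432 from the highest. The second TIPARP probe set, under the floor with sunitinib and in untreated cells, gave -1.57. The second AHRR probe set gave -0.05, and the AHR probe sets 0.95, 0.94 and -0.11. The deviation draws on all 4 arrays, among them the dihydroberberine array, whose control signals stood apart. The part of any single array in it was not tested.

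AHRR, the repressor that competes with the receptor for ARNT, gave no such reading. Its brighter probe set, 11729561_a_at, read 6.42 with dihydroberberine, 7.30 with sunitinib and 7.90 with both, against 7.11 in untreated cells. The single-drug library with dihydroberberine was thus the lowest, under the floor, and the combination the highest. The log2 difference was -0.69 with dihydroberberine alone and 0.59 in the combination against sunitinib, so the direction turned. Read against the floor, it was at least 1.28-fold lower with dihydroberberine alone. The other probe set, 11754841_a_at, read 6.96, 6.81 and 6.85 with dihydroberberine, sunitinib and both, against 6.87 in untreated cells, a range of 0.16. With both drugs, against dihydroberberine alone, AHRR was at least 2.21-fold higher on the first probe set, while the second gave -0.12. It was the 1 member of 7 past 2-fold higher there (2.46% of all genes), and 0 were past 2-fold lower (0.371%). Counted by probe set, 1 of 19 was past 2-fold higher (2.06% of all probe sets) and 1, the second of TIPARP, past 2-fold lower (0.49%). AHRR overlaps the read-through gene PDCD6-AHRR in the RefSeq gene table, and signal from the shared part cannot be told apart.

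CYP1B1, a P450 that oxidises hydrocarbons and estradiol and that many tumour lines express, was bright and had 5 probe sets. The one of highest signal, 11720410_s_at, read 13.46 with dihydroberberine, 13.01 with sunitinib and 13.45 with both, against 12.32 in untreated cells. The other bright ones read 13.15, 13.05 and 12.38 with dihydroberberine, against 11.92, 12.09 and 11.03 in untreated cells, and the dimmest, 11745721_s_at, read 8.91 with dihydroberberine, against 7.63 in untreated cells. On each of the 5 the untreated library was the lowest, sunitinib came next, and the 2 libraries with dihydroberberine were highest. The log2 difference was 1.13 with dihydroberberine (2.19-fold; 0.96 to 1.35 over the 5 probe sets) and 0.44 in the combination against sunitinib (0.44 to 0.64). Averaged over the 5 probe sets it was 1.19 ± 0.15 and 0.54 ± 0.08 (SD over probe sets of the same arrays, which leaves out the error between libraries).

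CYP1B1 was also higher with sunitinib alone, by a log2 difference of 0.69 (1.61-fold; 0.46 to 0.81 over the 5 probe sets), number 78 from the highest of 10651 genes. Sunitinib added to dihydroberberine gave differences of -0.17 to 0.17, and 2 of 5 were positive. The combination was 2.18-fold above untreated cells, close to the 2.19-fold of dihydroberberine alone, and the deviation from additivity was -0.69, or -0.82 to -0.40 over the probe sets. In sunitinib against untreated cells 0 of 6 measured members were past 2-fold in either direction, where 0.131% of all genes were higher and 0.441% lower. With both drugs against neither, 2 of 7, TIPARP (4.37-fold) and CYP1B1, were past 2-fold higher (0.913% of all genes) and 0 lower (1.37%).

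CYP1A1, the P450 most used as a readout of receptor activity, was dim. Its brighter probe set, 11726536_at, read 7.03 with dihydroberberine, 6.37 with sunitinib and 6.99 with both, against 6.19 in untreated cells. The other, 11754154_a_at, read 6.34, 6.33 and 6.30 in the treated libraries and 5.92 in untreated cells. On the first probe set the libraries with dihydroberberine were above the floor and the libraries without it under, whereas the second was under the floor on all 4 arrays. Against the floor CYP1A1 was at least 1.21-fold higher with dihydroberberine, and at least 1.18-fold higher with both drugs than with sunitinib, on this first probe set only. These are bounds against the floor, which is not a limit of detection. The median level of the background probe sets rich in G and C was 7.15 with dihydroberberine, above CYP1A1 there, and 6.95 with both drugs, just under it. One of them with fewer G and C bases read 6.50 and 6.29 on these arrays, under CYP1A1 on both. The G and C content of the CYP1A1 probes was not compared with theirs. The background probe sets differed in these comparisons by a median of 0.40 and -0.04 on the log2 scale, beside 0.84 and 0.63 for CYP1A1 as deposited, and their part in the first was not tested. Among the 6443 probe sets within 0.5 of the first one's mean level, the differences with dihydroberberine alone had a median of 0.08 and ran from -0.73 to 0.61 (5th to 95th percentile). For the combination set against sunitinib that range was -0.41 to 0.49.

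ALDH3A1, an aldehyde dehydrogenase inducible by ligands of the receptor and abundant in A549, had 1 probe set. It read 14.32 with dihydroberberine, 13.71 with sunitinib and 13.96 with both, against 14.08 in untreated cells. Each dihydroberberine library was slightly above its partner, by 0.23 and 0.24, and each sunitinib library below its partner, by -0.37 and -0.36. The deviation from additivity was 0.01. The highest signals on any array were 15.2 to 15.4, so this probe set lay near the top of the scale.

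**Figure D2:**
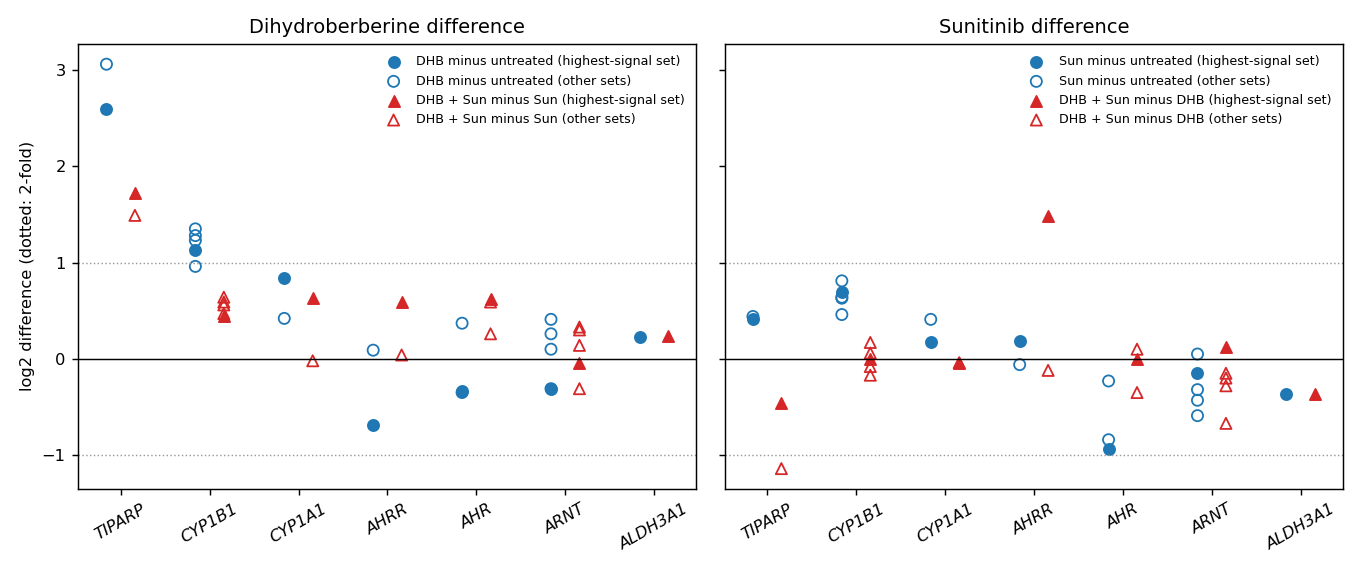
Log2 differences (vertical axis; dotted lines at 2-fold) of every member probe set, by gene (horizontal axis), for dihydroberberine (DHB) alone and on top of sunitinib (Sun) at left, and for sunitinib alone and on top of dihydroberberine at right. Filled symbols are the probe set of highest signal of a gene and open symbols its other probe sets. The TIPARP points of the left panel, drawn as deposited with no value raised to the floor, all lie above 1.4, and the AHRR, AHR and ARNT points fall on both sides of 0.

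AHR, the receptor itself, was lower with sunitinib. Its brighter probe sets read 10.59 and 10.44 with dihydroberberine, 9.97 and 9.95 with sunitinib and 10.59 and 10.54 with both, against 10.91 and 10.79 in untreated cells. The dim one, 11739680_a_at, read 7.87, 7.26 and 7.52 in the treated libraries and 7.50 in untreated cells. The sunitinib library was the lowest on all 3 probe sets. The log2 difference with sunitinib was -0.94 (1.92-fold lower), number 81 from the lowest of 10651 genes, and -0.84 and -0.23 on the other probe sets. With both drugs, against dihydroberberine alone, the bright probe sets gave 0.00 and 0.10, and the dim one -0.35. With dihydroberberine alone AHR differed by -0.33, -0.35 and 0.37, and in the combination against sunitinib by 0.62, 0.59 and 0.26. One of the bright probe sets, 11739681_x_at, is of the kind whose probes can also bind other transcripts.

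ARNT, the partner that the receptor needs to bind DNA and that hypoxia-inducible factors also use, stayed under 2-fold in every comparison. The 5 probe sets ranged over 0.31 to 0.67 on the log2 scale across the 4 arrays. The one of highest signal, 11757749_s_at, read 7.87 with dihydroberberine, 8.03 with sunitinib and 7.99 with both, against 8.19 in untreated cells. With dihydroberberine alone the probe sets differed from untreated by -0.31 to 0.41, with 3 of 5 positive, and in the combination against sunitinib by -0.31 to 0.33. With sunitinib alone 4 were negative and 1 positive, from -0.59 to 0.05, and in the combination against untreated cells all 5 were negative, from -0.45 to -0.02.

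**Figure D3:**
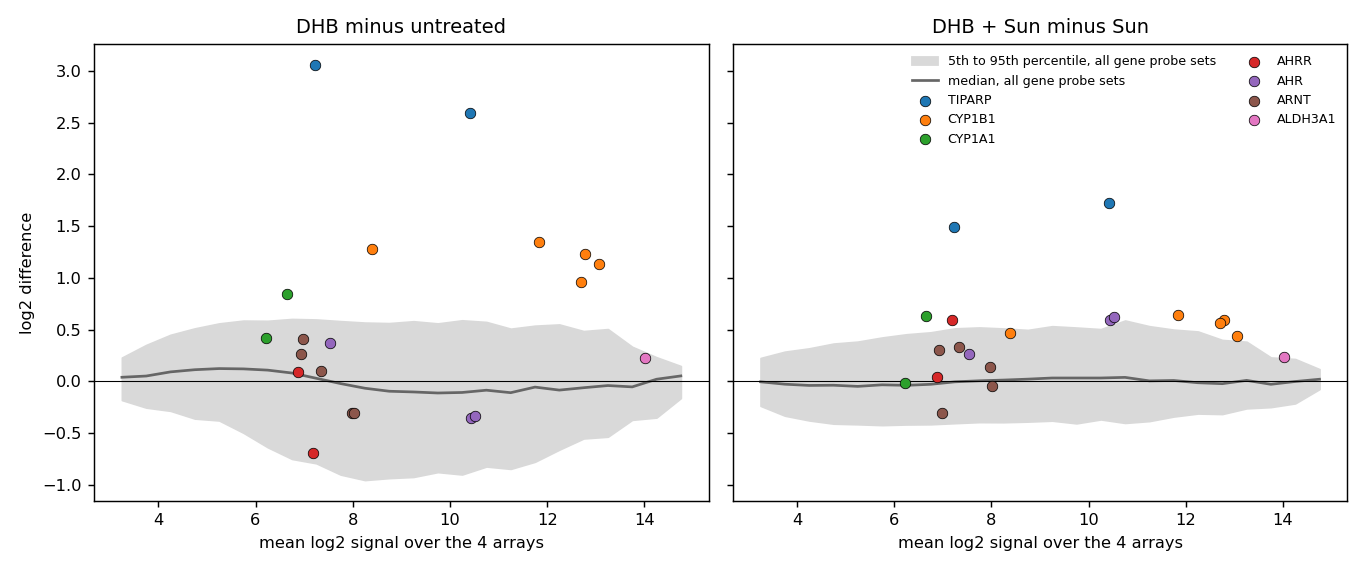
Log2 difference of the member probe sets (vertical axis) against their mean log2 signal over the 4 arrays (horizontal axis), for dihydroberberine (DHB) alone against untreated cells (left) and for the combination against sunitinib (Sun, right). The grey band covers the 5th to 95th percentile of all gene probe sets at that level and the line their median. Above the band at left lie both TIPARP probe sets, all 5 of CYP1B1 and the brighter one of CYP1A1. At right both TIPARP probe sets, the 4 bright ones of CYP1B1, the brighter ones of CYP1A1 and AHRR and the 2 bright ones of AHR lie above the band or at its upper edge, as does ALDH3A1 at the edge in both panels.

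Other genes of the pathway were taken from lists that hold further receptor targets, the cytosolic receptor complex, cofactors and relatives of the members. Of 21 further targets on the array 11 were measured in dihydroberberine against untreated cells, 4 with a positive and 7 with a negative difference, and 0 were past 2-fold in either direction, where 0.862% of all genes were higher and 3.13% lower, and a count of 0 among 11 is near these shares. Their median was -0.04, beside -0.03 over all genes, of which 46.8% were positive. For the combination set against sunitinib 8 of 11 were positive, with a median of 0.09 beside 0.00. NQO1, a quinone reductase shared with the NRF2 pathway, lay between 14.57 and 14.77 on all arrays. CYP1A2, the liver P450 beside CYP1A1, differed by 0.22 and -0.23 in these comparisons. NFE2L2, which encodes NRF2, differed by 0.34 and 0.44, and CDKN1A, the cell cycle inhibitor p21, by 0.62 and 0.80. With both drugs against neither, CDKN1A was 2.10-fold higher, with log2 differences of 0.99 and 1.07 on its probe sets. It was the 1 of 11 measured genes of this list past 2-fold higher there (0.913% of all genes), and 0 were past 2-fold lower (1.37%).

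Some further targets were lower. SLC7A5, a carrier of large neutral amino acids, read 10.84 with dihydroberberine, 12.05 with sunitinib and 11.81 with both, against 11.76 in untreated cells. Its difference of -0.93 with dihydroberberine alone came from 1 of 2 probe sets, and the other gave 0.04. ABCG2, a drug efflux pump, read 9.95 with sunitinib and 10.01 with both drugs, against 10.63 in untreated cells, and the dihydroberberine library, at 10.59, was close to untreated. NEDD9, a scaffold of focal adhesions, differed by -0.64 with sunitinib and by -0.28 in the combination against dihydroberberine.

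The 8 measured genes of the receptor complex and of its degradation stayed under 2-fold in all 5 comparisons. Of all genes 0.0846% to 3.13% were past 2-fold in a given direction there, and a count of 0 among 8 is near these shares. HSP90AA1 and HSP90AB1, which hold the receptor in its ligand-binding form, differed by 0.06 and -0.06 with dihydroberberine alone, and PTGES3, the co-chaperone p23, by -0.23. The list's median was -0.25, with 6 of 8 negative, and in the combination against sunitinib -0.01, with 5 of 8 negative. CUL4B, the ligase scaffold that can work with the receptor, differed by 0.23 and 0.38 in these comparisons. XPO1, the nuclear export receptor, read 10.21 with dihydroberberine, 10.81 with sunitinib and 10.82 with both, against 10.51 in untreated cells. DDB1 and RBX1, partners of cullin ligases, differed by -0.49 and -0.44 in the combination against untreated cells, and the kinase SRC by -0.36.

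Of 8 measured cofactors 1, CREBBP, was past 2-fold lower with dihydroberberine alone (3.13% of all genes), and a different one, ANKRA2, past 2-fold higher in the combination against sunitinib (0.601%). CREBBP, a histone acetyltransferase and coactivator, read 9.32 with dihydroberberine, 10.21 with sunitinib and 10.41 with both, against 10.69 in untreated cells, so that it was 2.60-fold lower with dihydroberberine alone. Its 5 probe sets ranged from -1.99 to -0.23 there, and in the combination against sunitinib its difference was 0.20. EP300, its close relative, was at least 1.38-fold lower with dihydroberberine alone and differed by -0.10 in the combination against sunitinib, from 1 probe set near the floor. SMARCA4, the ATPase of a chromatin remodelling complex, differed by -0.82 and -0.04. NCOA1, a coactivator of nuclear receptors, differed by -0.09 and 0.33. ANKRA2, an ankyrin repeat protein, was higher with both drugs, with 8.71 against 7.67 with sunitinib and 7.37 in untreated cells, and its 2 probe sets gave 1.04 and 0.98 against sunitinib.

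Among relatives of the receptor and of ARNT, 13 genes were measured with dihydroberberine alone and 1 was past 2-fold lower (3.13% of all genes) and 0 past 2-fold higher (0.862%). The lower one was PER2, a clock protein with PAS domains, at least 2.61-fold lower on the 1 of its 5 probe sets that reached the floor. With both drugs against neither, PER2 was 2.01-fold lower, the 1 of 12 measured genes past 2-fold lower there (1.37% of all genes). Its difference in the combination against sunitinib was -0.82. EPAS1, the hypoxia-inducible factor HIF-2 alpha, read 9.96 with dihydroberberine, 9.66 with sunitinib and 10.86 with both, against 10.04 in untreated cells. It was 2.29-fold higher with both drugs than with sunitinib on its brighter probe set, while the other gave 0.13, and was the 1 of 12 measured genes past 2-fold higher there (0.601% of all genes). SIM2, a bHLH-PAS factor of the nervous system, read 6.11 with dihydroberberine, 6.59 with sunitinib and 7.58 with both, against 6.92 in untreated cells. HIF1A, which encodes HIF-1 alpha, differed by 0.36 with dihydroberberine and by 0.54 in the combination against sunitinib. BMAL2, a clock partner protein, was at least 1.14-fold higher with dihydroberberine alone, and ARNT2, the neural relative of ARNT, at least 1.20-fold lower.

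TIPARP belongs to the PARP family. Of 14 measured relatives 0 were past 2-fold higher with dihydroberberine alone or in the combination against sunitinib, which is near the share of all genes (0.862% and 0.601%), and their medians were -0.03 and -0.09. PARP1, the main DNA damage sensor of the family, differed by -0.65 and -0.29, and PARP12, a close relative with zinc fingers, by -0.13 and -0.59. TNKS2, the PARP known as tankyrase 2, differed by -0.26 and 0.27. PARP8 had the highest value with dihydroberberine alone, 0.42. ZC3HAV1, the antiviral zinc finger member PARP13, read 6.59 with dihydroberberine, 9.71 with sunitinib and 9.59 with both, against 9.48 in untreated cells. It was at least 6.64-fold lower with dihydroberberine alone on this probe set, the 1 of the 14 past 2-fold lower there (3.13% of all genes), while its 4 probe sets ranged from -3.35 to -0.07, and in the combination against sunitinib it differed by -0.13.

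**Figure D4:**
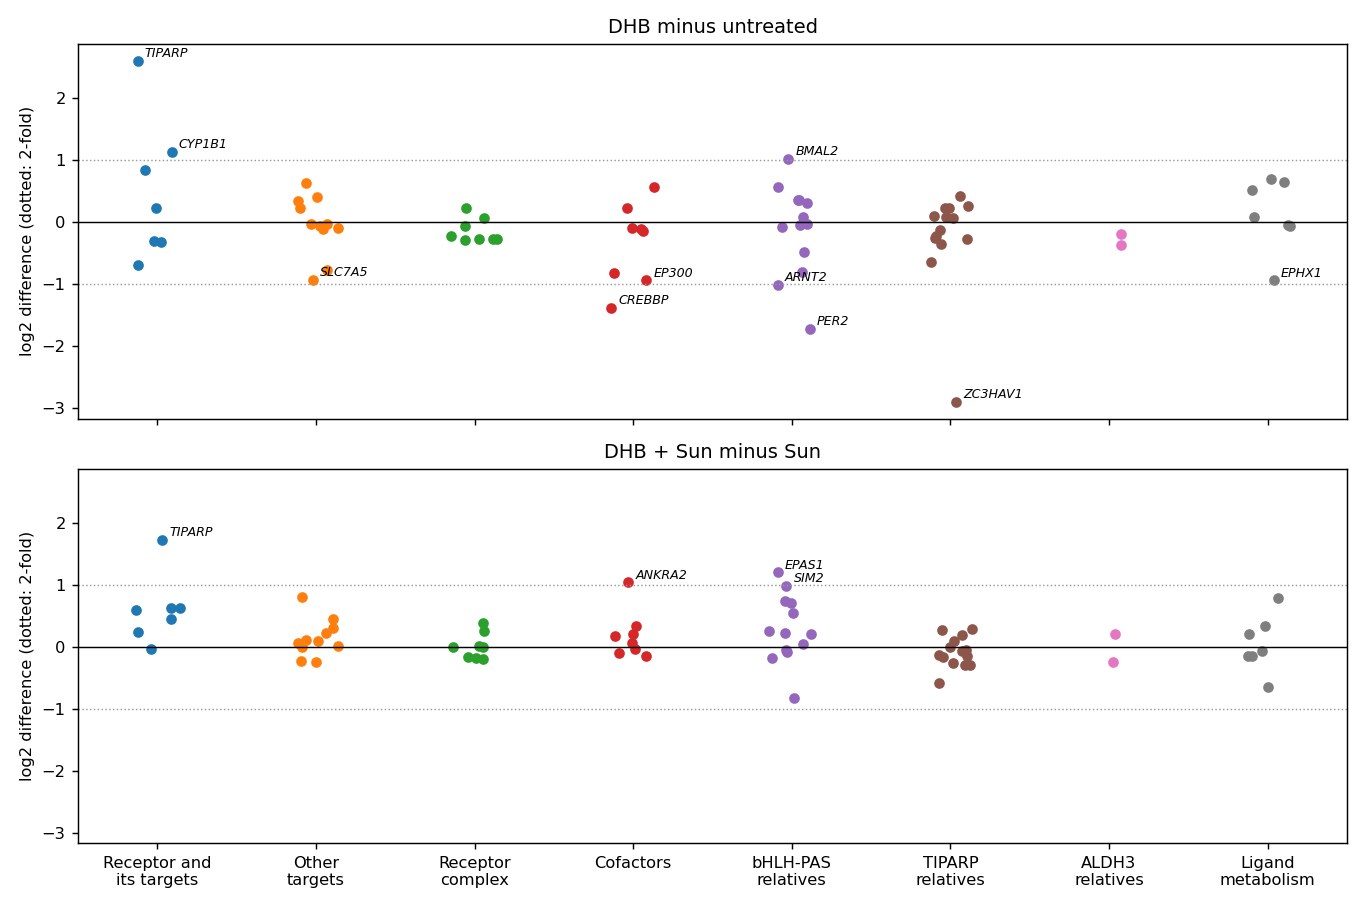
Log2 difference (vertical axis; dotted lines at 2-fold) of the members and of each gene of the 7 pathway lists that reached the floor on any array (marker genes are not drawn), grouped by list (horizontal axis; the sideways spread within a list carries no value), for dihydroberberine (DHB) alone against untreated cells (top) and the combination against sunitinib (Sun, bottom). Values are those of the probe set of highest signal before any is raised to the floor, so genes such as ARNT2 and BMAL2 appear past 2-fold at top. TIPARP is the highest point in both panels, and ZC3HAV1 and PER2 are the lowest points at top.

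The genes most like each member that spanned at least 1 log2 unit over the arrays were sought by the Euclidean distance between their 3 log2 differences from untreated cells, over 10957 other genes and 4 arrays, with Pearson's r over the same arrays beside it as a description. The 5 nearest to TIPARP were ESM1 (distance 0.19, r 0.998), PDCD1LG2 (0.47, r 0.999), FOSL1 (0.61, r 0.981), IL1A (0.63, r 0.996) and GDF15 (0.71, r 0.999). ESM1, a secreted proteoglycan, differed by 2.58 with dihydroberberine, 0.45 with sunitinib and 2.31 with both. The nearest to CYP1B1 were KLHL28 (0.14), VRK2 (0.16), OGT (0.18), EXD3 (0.21) and MYO5C (0.25). The nearest to AHRR, on its brighter probe set, were ZBTB18 (0.15), ENTPD4 (0.16), ZNF264 (0.18), SNX13 (0.23) and URI1 (0.23), all lower with dihydroberberine alone and higher with both drugs. Since the search used these differences, the shared direction was set by it. All of these genes share the same 4 libraries.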

How the data were processed

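Per the labels' protocols, TRIZOL RNA from A549 cells was column-purified with DNase, and GeneChip 3′ IVT reagents added a biotin label. An Agilent platform stands in the design text and Cy3 in the label field, yet the probe set names are Affymetrix ones. Values deposited by the authors are log2 summaries per probe set, and Affymetrix Expression Console is credited from the submitters' processing notes. That the scale is log2 was read from the values. For summarization, scaling between arrays and background correction, the method is not given in the sources used here.

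Of 49395 rows 102 were controls, 44988 had 1 gene symbol, 1832 several and 2473 none here. Symbols were checked against RefSeq (GRCh38.p14) through gene identifiers, where 44961 matched and 0 changed. All member probe sets are given. In counts a gene is its probe set of highest mean signal, and is measured where 1 of the compared arrays reaches 6.75, the median of gene probe sets. Values under it were raised to it for counts, and such folds are written "at least". Named were all members, up to 5 genes of a list by size of difference, genes past 2-fold, and the 5 nearest genes of members spanning 1 log2 unit. HIF1A, NQO1, CYP1A2, NFE2L2, HSP90AA1, HSP90AB1 and PTGES3 were added after their values were seen. One list gene that the rule names is not reported here. Members and lists were chosen with earlier results of these data known. The labels do not say whether the arrays come from separate cultures. Tools were Python 3.11.15, pandas 2.3.3, numpy 2.4.6 and matplotlib 3.10.9. The counting was tested on simulated data, with shifts past 2-fold only in genes well above the floor. It was not tested for genes near the floor.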

Additional observations from a re-analysis of the deposited data

Results flagged for a closer look

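Members whose difference with 1 drug had opposite signs without and with the other drug, each larger than the median SD between probe sets, were AHR, AHRR and TIPARP. These turns of direction were not tested because each value rests on 1 library per condition. The SD comes from probe sets of the same arrays and leaves out the error between libraries. The share of all genes that turn in this way is not given here, so such turns may be common. For AHR the dihydroberberine difference was -0.33 alone against untreated cells and 0.62 in the combination against sunitinib. The dim AHR probe set did not turn, with 0.37 and 0.26. On the AHRR probe set that stands for the gene, which was under the floor with dihydroberberine, the dihydroberberine difference was -0.69 alone and 0.59 in the combination against sunitinib, and its other probe set gave 0.09 and 0.04. For TIPARP the sunitinib difference was 0.41 alone and -0.46 in the combination against dihydroberberine, and the second probe set, under the floor in both libraries of the first comparison, gave -1.14 in the combination against dihydroberberine. All 3 turns use all 4 arrays. Among these is the dihydroberberine array, whose Alu and 18S controls differed from untreated by -0.41 and -0.63. The part of any single array in the turns was not tested.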

How the results depend on the processing

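TIPARP kept a positive dihydroberberine difference under each alternative run, from 2.56 to 3.06 alone and from 1.49 to 1.72 in the combination against sunitinib (the values of 3.06 and 1.49 are from its second probe set, as deposited, against signals under the floor), and CYP1B1 from 1.10 to 1.23 and from 0.41 to 0.59. AHRR did not: in the combination against dihydroberberine its 1.48 was -0.12 on the second brightest probe set, so that the count of members at least 2-fold higher there was 0 instead of 1, as it was after averaging a gene's probe sets and with the floor at the 75th percentile (8.69). On second brightest probe sets 1 member, TIPARP, was at least 2-fold lower in that comparison. At 1.5-fold, 3 members were higher in the combination against sunitinib (TIPARP, AHR and AHRR), and with sunitinib alone 1 was higher (CYP1B1) and 1 lower (AHR). With the dihydroberberine array left out and the combination minus sunitinib in its place, chosen after seeing the data, 1 member (TIPARP) instead of 2 was at least 2-fold higher. After averaging a gene's probe sets the members' median was 0.40 in the combination against sunitinib (0.59 in the main run) and -0.11 with sunitinib (0.02). It was -0.16 in the combination against dihydroberberine (-0.0) and 0.13 in the combination against untreated cells (0.78). The medians of 0.59 and 0.78 are the values of AHRR on its brighter probe set, where its other probe set gave 0.04 and -0.03. With no filter the members' median was 0.18 with sunitinib. In all, 74 of 82 member counts stayed within 1.5 times the reported count, a tolerance that lets 2 become 3 but not 0 become 1, and 130 of 175 member differences within the median SD between probe sets of a gene (0.13, or 0.094 in the combination against sunitinib). Many of these differences could not move. Centring hardly shifts arrays of such like medians, and raising values to the floor leaves members above it unchanged. ALDH3A1 has 1 probe set, so the choice of probe set cannot change it. Many of the member counts were 0 in the main run and could hardly move under such settings. Neither the count of 130 nor that of 74 is therefore a measure of stability. Counts over all genes moved too: over the alternatives other than 1.5-fold, with dihydroberberine alone 53 to 122 genes were higher (93 as reported) and 141 to 400 lower (338), in the combination against sunitinib 31 to 84 higher (64) and 4 to 14 lower (9), and with sunitinib 8 to 26 higher (14) and 26 to 67 lower (47). In the combination against dihydroberberine 76 to 322 were higher (265) and 23 to 50 lower (40), and against untreated cells 39 to 143 higher (97) and 85 to 174 lower (146). At 1.5-fold these counts were 449 and 1282 with dihydroberberine, 354 and 140 in the combination against sunitinib, 121 and 372 with sunitinib, 1037 and 256 in the combination against dihydroberberine and 686 and 730 against untreated cells. No paired analysis was possible because each condition has 1 array. Signals near 6.75 may be background, which limits CYP1A1, AHRR and the dim ARNT probe sets.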

Other observations

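Genes that make or clear ligands of the receptor, and the other ALDH3 enzymes, were measured as well. TDO2, the tryptophan dioxygenase that starts the kynurenine pathway, read 7.51 with dihydroberberine, 7.60 with sunitinib and 7.81 with both, against 6.82 in untreated cells, so that all 3 treated libraries were above untreated, from 1 probe set near the floor. KYAT3, a kynurenine aminotransferase, read 8.46 with dihydroberberine and 8.25 with both drugs, against 7.46 with sunitinib and 7.81 in untreated cells. Its difference was 0.65 with dihydroberberine alone and 0.78 in the combination against sunitinib. EPHX1, the microsomal epoxide hydrolase, read 10.08 with dihydroberberine and 10.19 with both drugs, against 10.84 with sunitinib and 11.02 in untreated cells, a difference of -0.94 alone and -0.65 in the combination against sunitinib. KYNU, the kynureninase, was bright and lay between 12.47 and 12.81. IL4I1, an amino acid oxidase that acts on tryptophan, read 6.77 with dihydroberberine, 6.86 with sunitinib and 6.72 with both, against 6.26 in untreated cells, all near or under the floor. ALDH3A2 and ALDH3B1, relatives of ALDH3A1, differed by -0.19 and -0.37 with dihydroberberine alone, where ALDH3A1 differed by 0.23. Of the 7 measured genes of ligand metabolism 0 were at least 2-fold higher or lower with dihydroberberine alone, beside 0.862% and 3.13% of all genes, and a count of 0 among 7 is near these shares.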
